A study of Mus musculus with 18 samples.

Results

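The insulin-like growth factor (IGF) genes described here are 10 of the 43430 genes counted in myofibers of mouse quadriceps muscle, chosen by name. They are the ligands Igf1 and Igf2, the noncoding RNA H19, the receptors Igf1r, Igf2r and Insr, and the binding proteins Igfbp3, Igfbp4, Igfbp5 and Igfbp6. The study asked how weekly and daily exposure to the glucocorticoid prednisone change muscle in each sex. Its 18 RNA sequencing libraries form 6 groups of 3 C57BL/6 mice (C57BL/6J per the methods of the study), with males and females given vehicle, weekly prednisone or daily prednisone. Per the methods of the study, mice were 10 weeks old at the start, were treated for 4 weeks and were injected into the peritoneum every day. Daily animals received prednisone at 1 mg/kg each day and vehicle animals received DMSO in saline. Weekly animals received 1 prednisone injection a week and vehicle on the other days, with the last prednisone given 2 days before the muscle was taken. No mouse carried a genetic modification according to the labels.

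Myofibers were the material held back by a strainer after collagenase digestion of the muscle, so blood vessels, fat and connective tissue can be retained with them. All 7 myofibre marker genes were detected in every library, with a summed level of 115305 to 211027 CPM (read counts scaled to a library of 1000000). The marker lists of adipocytes, fibroblasts, macrophages, endothelial cells, mural cells, satellite cells, tendon cells and Schwann cells were also detected, with no marker at a count of 0 in any library. Adipocyte markers summed to 781 to 9383 CPM and fibroblast markers to 1032 to 3649 CPM. In such bulk RNA, fewer cells of a type cannot be told apart from less RNA per cell. Libraries held 10506661 to 14686654 counts, and 13596 genes, including all 10 IGF genes, had enough counts to be tested. Replicates 1 and 2 of the female weekly group stood apart in opposite directions. Replicate 1 had the lowest endothelial, mural, satellite cell and tendon marker sums of the 18 libraries (534, 481, 24.3 and 377 CPM) and an adipocyte marker sum of 7563 CPM. Replicate 2 had the highest sums of the same lists (1518, 1636, 98.1 and 1757 CPM) and an adipocyte marker sum of 2421 CPM.

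IGF1 and IGF2 are secreted growth factors. Both activate the receptor tyrosine kinase IGF1R, and insulin acts through INSR, after which IRS adaptor proteins pass the signal to PI3K and AKT, a route that promotes protein synthesis and growth of muscle fibers. IGF2R, also known as the cation-independent mannose 6-phosphate receptor, has no kinase. It binds IGF2 for degradation and carries newly made enzymes to the lysosome. Binding proteins hold IGFs in the extracellular space and either restrain or prolong their action. Igf2, H19 and Igf2r are imprinted: Igf2 is expressed from the paternal allele, and H19 and Igf2r mainly from the maternal allele.

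The main change among these genes was in Igf2r, which was higher in daily prednisone–treated muscle of both sexes than in weekly-treated muscle. It rose 1.41-fold between the regimens (log2 fold change 0.50 ± 0.08 SE, adjusted p = 0.00573 by edgeR's quasi-likelihood test), where 8.17% of all tested genes were called. Against vehicle, Igf2r rose 1.28-fold with daily prednisone as the mean of both sexes, where 15% of all tested genes were called. No IGF gene was called with weekly prednisone, and no IGF gene was called for a sex difference of either response. In each of these comparisons edgeR called 0% of all tested genes, so these counts do not set the IGF genes apart. Igf1, Igf1r, Insr and H19 had differences that did not pass the test, and for H19 the direction of the weekly difference in females rested on 1 library.

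Levels between genes were compared as CPM per kilobase of exon. H19 had the highest mean level, 105 ± 85.7 (SD, n = 18), followed by Igfbp5 at 83.0 ± 31.7 and Igfbp6 at 66.1 ± 20.6 CPM per kilobase. These 3 genes were not separated, since H19 exceeded Igfbp5 in 9 of 18 libraries and Igfbp5 exceeded Igfbp6 in 10 of 18. Igfbp3 at 14.8 ± 4.30 and Igfbp4 at 14.1 ± 4.01 formed the next pair, and Igfbp3 was the higher of them in 9 of 18 libraries. Igf2r had 8.50 ± 1.43, Igf2 6.78 ± 2.0 and Insr 4.54 ± 0.853 CPM per kilobase, with Igf2r above Igf2 in 15 of 18 libraries and Igf2 above Insr in 15 of 18. Igf1 was lower, at 1.41 ± 0.463, and Igf1r was the lowest at 0.383 ± 0.129 CPM per kilobase. Insr exceeded Igf1, and Igf1 exceeded Igf1r, in all 18 libraries. The counted gene model of Igf1r ends at position 68226780 of chromosome 7 (mm10), short of the end at 68233668 in GENCODE M21, and its level uses the 9871 exon bases inside the counted span.

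**Figure D1:**
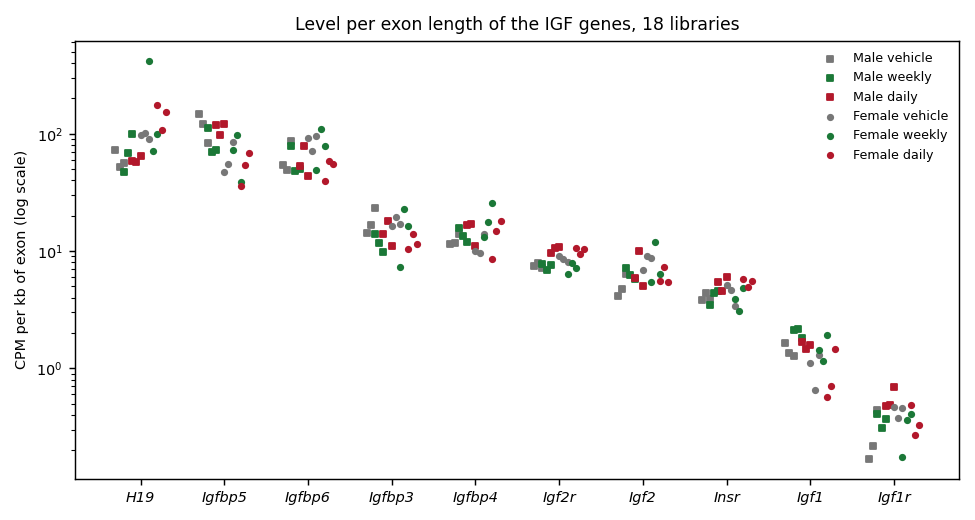
Level of each IGF gene in CPM per kilobase of exon (log scale), genes ordered by their mean. Each point is 1 of 18 libraries, with squares for males, circles for females, and grey, green and red for vehicle, weekly and daily prednisone. H19, Igfbp5 and Igfbp6 overlap at the top, and Igf1r lies lowest in every library.

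The 10 genes also differed in how tightly replicates agreed. The SD of log2 CPM within groups was 0.10 for Igf2r, smaller than in all but 1.76% of tested genes, and 0.23 for Insr. For the other 8 genes it lay between 0.37 (Igfbp4) and 0.63 (H19), against a median of 0.28 over all tested genes. With all 18 libraries, a change of a given size was therefore resolved best for Igf2r and least for H19. The H19 spread included female weekly replicate 1, at 1032.5 CPM. Without that library the SE of the weekly response of females was 0.26 for H19, beside 0.11 for Igf2r and 0.38 for Igfbp5, so H19 was then not the least resolved.

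Igf1 lies on chromosome 10 at 87858265 to 87937042 (mm10, plus strand). Its counts were low, 60 to 256 per library. In males, Igf1 was 16.2, 13.2 and 12.5 CPM with vehicle, 21.2, 21.4 and 17.8 with weekly prednisone, and 16.7, 14.6 and 15.8 with daily prednisone. The 3 weekly male libraries all lay above the 3 vehicle libraries, while the daily libraries overlapped them. In females, Igf1 was 11.01, 6.52 and 12.9 CPM with vehicle, 14.3, 11.4 and 19.04 with weekly prednisone, and 5.61, 7.05 and 14.5 with daily prednisone. In females the ranges of all groups overlapped. The difference between weekly and vehicle was 0.53 ± 0.29 on the log2 scale in males and 0.55 ± 0.30 in females, with a mean of 0.54 ± 0.21 (1.45-fold, unadjusted p = 0.0205, adjusted p = 0.351). The weekly responses of the sexes differed by 0.02 ± 0.42, with a 95% interval from -0.86 to 0.91. With daily prednisone, the mean difference from vehicle was 0.00 ± 0.22. Between the regimens Igf1 was lower with daily than with weekly prednisone by 0.54 ± 0.21 (log2 fold change -0.54, adjusted p = 0.121). It passed the test (log2 fold change -0.80, adjusted p = 0.0232) when female daily replicate 3, the highest daily female, was left out. It did not pass with the adipocyte marker score described below as a covariate (adjusted p = 0.0783) or with the trend on exon length and GC content removed (0.0774). Nor did it pass without female weekly replicate 1 (0.136). In females, the daily and weekly libraries with the same replicate number deviated together from their group means (r = 0.50, 0.48 and 0.44), which the labels do not explain. A replicate block in these 6 libraries, chosen after seeing the data, was the only other alternative in which Igf1 passed (log2 fold change -0.58, adjusted p = 0.0180). That fit removes the shared deviations for which it was chosen, so it gives no separate support. With it, calls over all genes rose from 0 to 522 in females and from 1111 to 1811 as the mean. Adipocyte marker sums were 1967 to 2250 CPM in vehicle females and 2421 to 9383 in weekly females. They were 781 to 1691 in vehicle males and 1316 to 2222 in weekly males, where the ranges overlapped. The adipocyte marker score, the mean log2 CPM of the list, did not overlap in either sex. It was 5.49 to 5.63 in vehicle and 5.90 to 8.90 in weekly females, and 4.25 to 4.95 in vehicle and 5.80 to 6.78 in weekly males. With weekly prednisone as the mean of both sexes, edgeR called 0 of the 10 adipocyte markers and 0% of all genes. DESeq2 called 8 of these markers. With the adipocyte marker score as a covariate, the weekly difference of Igf1 was 0.01 ± 0.27 as the mean of both sexes. Every weekly and daily library had a higher score than every vehicle library of its sex. The score and treatment against vehicle therefore cannot be told apart, in this fit or in those with this covariate given below.

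Igf2 lies on chromosome 7 at 142650766 to 142666816 (minus strand). In vehicle libraries it was 23.5, 27.2 and 36.4 CPM in males and 39.6, 51.4 and 50.2 CPM in females, so that every vehicle female lay above every vehicle male. The sex difference at baseline was 0.70 ± 0.29 on the log2 scale (1.62-fold, unadjusted p = 0.0270, adjusted p = 0.393). Daily libraries held 34.0, 57.6 and 28.9 CPM in males and 31.8, 41.6 and 30.9 in females. The daily response was 0.47 ± 0.29 in males and -0.44 ± 0.28 in females, neither called. The difference between these 2 responses was -0.91 ± 0.40 (95% interval -1.76 to -0.06, unadjusted p = 0.0384, adjusted p = 0.889). Weekly libraries held 40.6, 35.5 and 33.2 CPM in males and 31.4, 68.2 and 36.2 in females, and overlapped the vehicle libraries in both sexes.

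H19, a noncoding RNA transcribed next to Igf2, lies on chromosome 7 at 142575529 to 142578143 (minus strand). It is the precursor of miR-675, and 2 mature forms of this microRNA are given here because H19 was the member with the largest spread. The sequences are from RefSeq (GRCm38.p6), with the seed, bases 2 to 8, in capitals, and the forms share no seed.
mmu-miR-675-5p: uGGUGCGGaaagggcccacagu
mmu-miR-675-3p: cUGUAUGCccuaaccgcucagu
The 5p form lies at chr7:142577112-142577133 and the 3p form at chr7:142577078-142577099, both on the minus strand and within H19. The poly(A) gene counts list the miR-675 gene at 0 in all 18 libraries and do not measure the mature forms.

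H19 was 179, 128 and 138 CPM in vehicle males, 117, 168 and 243 in weekly males, and 145, 141 and 160 in daily males. In females it was 241, 249 and 221 CPM with vehicle and 432, 267 and 378 with daily prednisone, and the daily and vehicle ranges did not overlap. The daily response of females was 0.60 ± 0.48 on the log2 scale (adjusted p = 0.554). The fit shares 1 spread estimate per gene over all 18 libraries, so this SE also holds the spread of the weekly females. The daily response was not recomputed without a weekly library. Weekly females held 1032.5, 174 and 245 CPM, so that replicate 1, a library that stood apart in its markers, was above all other 17 libraries. The weekly response of females was 1.03 ± 0.48 with this library (2.04-fold, adjusted p = 0.623) and -0.18 ± 0.26 without it (adjusted p = 0.790). The direction of the weekly difference thus rested on 1 library. In that library H19 was 32.9 times as abundant as Igf2 in CPM, against 2.45 to 13.6 times in the other 17. In daily females the ratio was 13.6, 6.42 and 12.2, and in vehicle females it was 6.08, 4.85 and 4.41. Every daily female therefore had a higher H19 to Igf2 ratio than every vehicle female, while in males the daily ratios of 4.25, 2.45 and 5.55 overlapped the vehicle ratios of 7.60, 4.70 and 3.77.

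**Figure D2:**
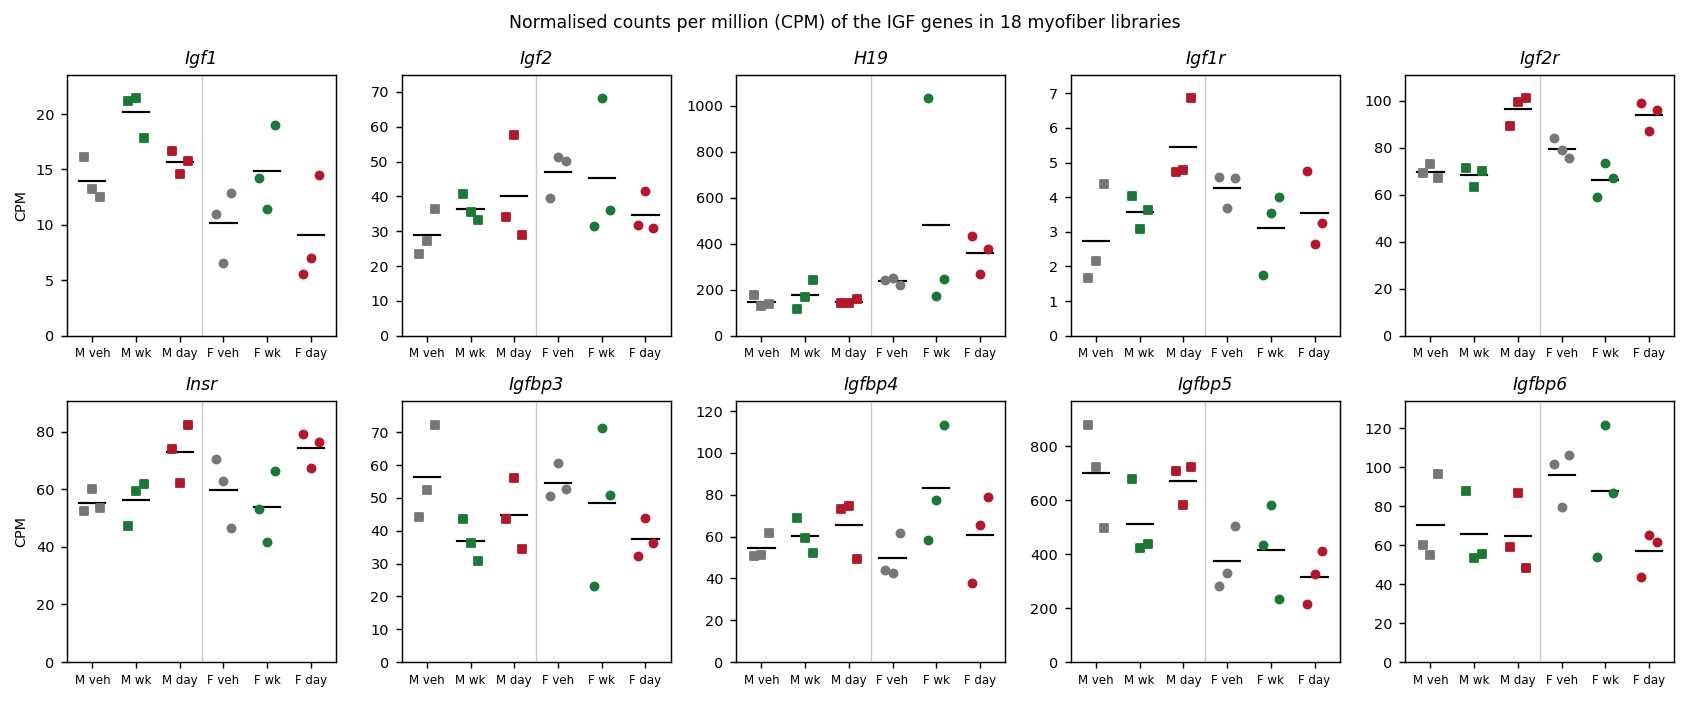
CPM of each IGF gene in every library, 1 panel per gene with its own axis from 0. Points are libraries of males (M, squares) and females (F, circles) given vehicle (veh), weekly (wk) or daily (day) prednisone, and bars are group means. The 6 daily libraries of Igf2r lie above the other 12, and 1 weekly female at 1032.5 CPM sets the H19 panel's scale.

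Igf2r lies on chromosome 17 at 12682406 to 12769664 (minus strand). It was 69.4, 72.9 and 67.2 CPM in vehicle males, 71.5, 63.5 and 70.2 in weekly males, and 89.1, 99.5 and 101.05 in daily males. In females it was 84.0, 79.2 and 75.7 CPM with vehicle, 58.9, 73.3 and 67.2 with weekly prednisone, and 99.1, 87.1 and 96.0 with daily prednisone. The 6 daily libraries, at 87.1 to 101.05 CPM, all lay above the 6 vehicle libraries (67.2 to 84.0) and the 6 weekly libraries (58.9 to 73.3). In females the weekly libraries also all lay below the vehicle libraries.

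Igf2r was called in males given daily prednisone, at 0.47 ± 0.11 on the log2 scale (1.38-fold, adjusted p = 0.0216). In females the daily difference was 0.24 ± 0.11 (1.18-fold, unadjusted p = 0.0436, adjusted p = 0.271), and the 2 responses differed by -0.23 ± 0.16 (adjusted p = 0.889). The mean daily response was 0.35 ± 0.08 (adjusted p = 0.00684). With weekly prednisone, Igf2r differed from vehicle by -0.03 ± 0.11 in males and -0.26 ± 0.11 in females (unadjusted p = 0.0305, adjusted p = 0.547). Daily and weekly muscle differed by 0.50 ± 0.11 in each sex, with adjusted p = 0.140 in males and 0.0711 in females (0.0302 with the replicate block in the daily and weekly females), and as the mean of both sexes this difference passed the test in every alternative tried. The 2 calls against vehicle were less stable. Both were lost with the adipocyte marker score as a covariate, where the estimates were 0.57 ± 0.13 in males (adjusted p = 0.0554) and 0.46 ± 0.11 in both sexes (adjusted p = 0.0579). Both were also lost when the trend on exon length and GC content was removed, at 0.28 ± 0.12 (adjusted p = 0.272) and 0.23 ± 0.09 (adjusted p = 0.139). In these fits the calls over all tested genes fell as well, from 878 to 51 and 72 in males and from 2033 to 76 and 771 as the mean. The male call was further lost without male daily replicate 2 (adjusted p = 0.0836) or 3 (0.0661), or male vehicle replicate 1 (0.0780) or 3 (0.0613), with estimates of 0.45 to 0.48.

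**Figure D3:**
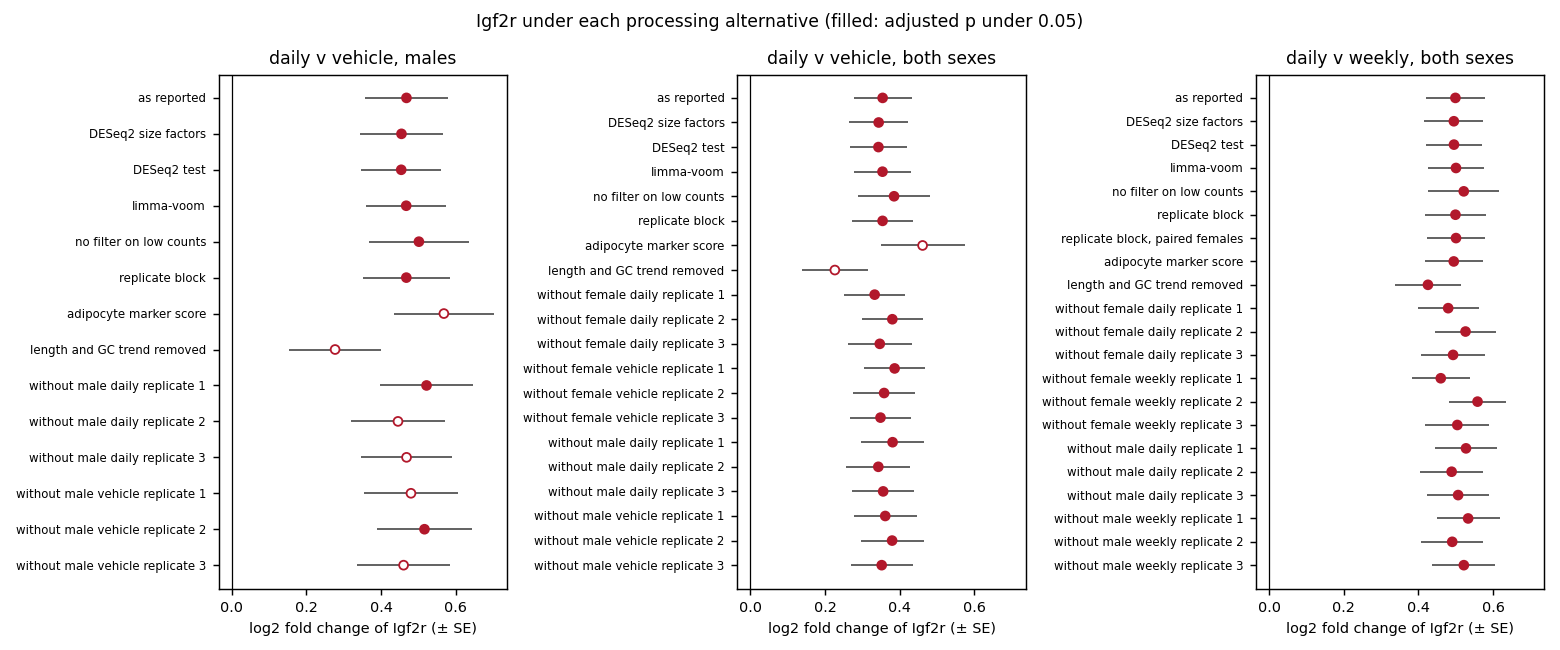
Log2 fold change of Igf2r (point) with its SE (line) in 3 comparisons, as reported and under each processing alternative. Filled points have an adjusted p under 0.05. Estimates for daily against weekly prednisone stay between 0.43 and 0.56 and are all filled, while those against vehicle drop to 0.28 and 0.23 when the length and GC trend is removed.

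An antisense gene, Airn, overlaps the start of Igf2r, and no strand setting of the counting is stated in the sources used here. Airn itself received 1121 counts over the 18 libraries, at most 82 in a library, against 17902 for Igf2r. It differed by -0.35 ± 0.16 with daily prednisone as the mean of both sexes (adjusted p = 0.161), in the opposite direction to Igf2r. The antisense genes at Igf1 (50 counts), Igf2 (37) and Insr (1) had few counts.

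The Igf2r promoter is shown because Igf2r is the member whose calls the results turn on. These are the 250 bases before the RefSeq start, chr17:12769707-12769956 on the minus strand (GRCm38.p6), with CACGTG in capitals.
Igf2r promoter: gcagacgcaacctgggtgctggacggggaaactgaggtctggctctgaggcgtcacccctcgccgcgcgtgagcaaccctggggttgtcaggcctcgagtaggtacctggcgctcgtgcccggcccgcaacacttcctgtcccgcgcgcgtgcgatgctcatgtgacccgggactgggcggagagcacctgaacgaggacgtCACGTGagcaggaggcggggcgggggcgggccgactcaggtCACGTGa
CACGTG is an E-box, the core recognised by basic helix-loop-helix proteins, which include MYC, the clock protein CLOCK and the lysosomal regulator TFEB. It reads the same on both strands. In windows of 250 bases before to 50 after each RefSeq start, 7.15% of 32851 promoters held it. Among 11 such windows that covered 8 of the IGF genes, only the Igf2r window held it, with 2 matches. The core of the glucocorticoid response element, ACANNNTGT, also reads the same on both strands. It was found in none of these 11 windows and in 6.85% of all promoters, and AGAACA, a repeat unit of the fuller element searched on both strands, was in 1 Igf2 window and in 18.97% of all. Such matches describe letters near the start and say nothing about binding here or farther away. The Igf2r window held 34 CpG dinucleotides and was 70.7% G or C, and 92.3% of all windows held fewer CpG.

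Insr, the insulin receptor, lies on chromosome 8 and was counted over 3150922 to 3279617 (minus strand). It was 52.5, 60.0 and 53.3 CPM in vehicle males, 47.3, 59.4 and 62.0 in weekly males, and 73.8, 62.1 and 82.4 in daily males. In females it was 70.4, 62.9 and 46.4 CPM with vehicle, 53.1, 41.7 and 66.4 with weekly prednisone, and 79.3, 67.3 and 76.4 with daily prednisone. The daily libraries did not overlap vehicle in males but did in females. The daily difference from vehicle was 0.40 ± 0.18 on the log2 scale in males and 0.31 ± 0.18 in females, and their mean of 0.35 ± 0.13 (1.28-fold) had adjusted p = 0.0707. That mean equalled the mean for Igf2r to 2 decimals, but with the larger spread of Insr it did not pass the test. It passed (0.43 ± 0.12, adjusted p = 0.0324) without female vehicle replicate 1. With the adipocyte marker score as a covariate it was 0.10 ± 0.17, and with the length and GC trend removed it was 0.10 ± 0.14. Between regimens, Insr was 1.34-fold higher with daily than with weekly prednisone (0.42 ± 0.13, adjusted p = 0.0517). That difference fell on either side of the threshold. DESeq2 gave adjusted p = 0.0296, the fit with the adipocyte score 0.0303, the fit with no filter 0.0430, and the replicate block in the daily and weekly females, chosen after seeing the data, 0.0195. It was also called without female weekly replicate 3 (0.0243), male daily replicate 2 (0.0485) or male weekly replicate 3 (0.0467). Every other alternative left it uncalled, among them removal of the length and GC trend (0.431) and leaving out female weekly replicate 1 (0.0689).

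Igf1r, the main signalling receptor for both ligands, was counted over 67952859 to 68226780 of chromosome 7 (plus strand) and had 19 to 76 counts per library. It was 1.67, 2.16 and 4.37 CPM in vehicle males and 4.73, 4.78 and 6.85 in daily males, with no overlap between the groups. In males the daily difference was 1.0 ± 0.35 on the log2 scale (2.0-fold, adjusted p = 0.0961), and without male vehicle replicate 3, the highest of its group, it was 1.52 ± 0.35 and passed the test (adjusted p = 0.0431). In females, vehicle libraries held 4.57, 3.69 and 4.57 CPM and daily libraries 4.76, 2.64 and 3.26. The daily difference was -0.28 ± 0.34, and the responses of the sexes differed by -1.28 ± 0.49 (95% interval -2.31 to -0.24, unadjusted p = 0.0184, adjusted p = 0.889). Weekly libraries held 4.05, 3.07 and 3.62 CPM in males and 1.74, 3.54 and 4.01 in females. The weekly differences were 0.40 ± 0.36 in males and -0.48 ± 0.35 in females, with adjusted p = 0.866 and 0.852.

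**Figure D4:**
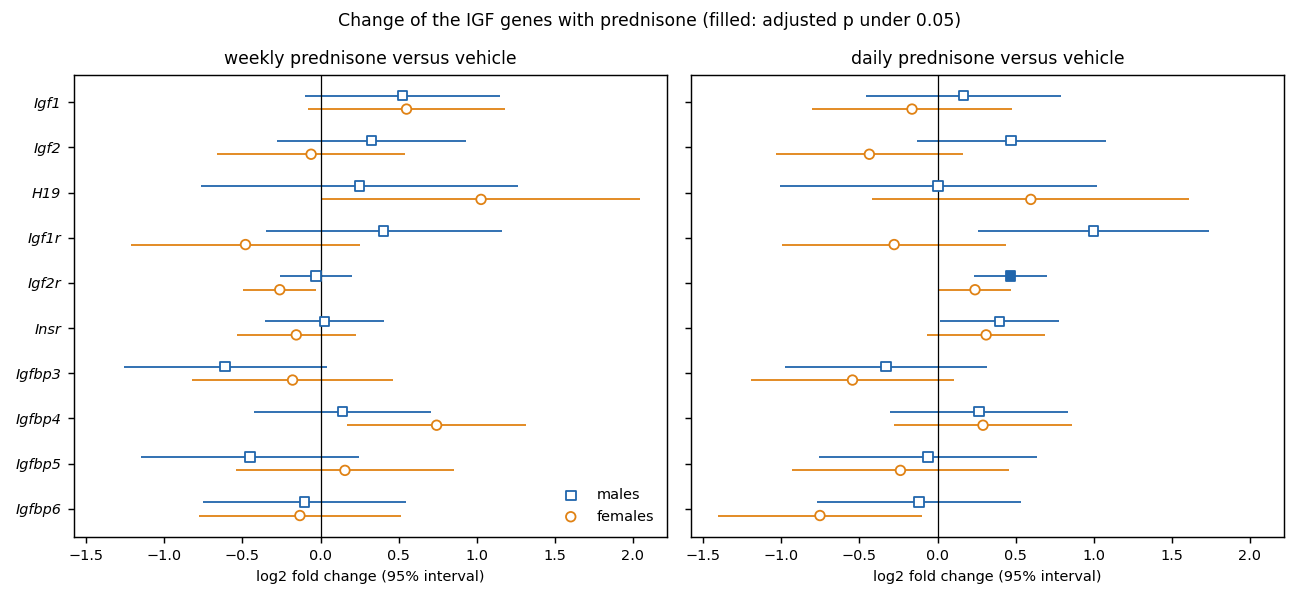
Log2 fold change of each IGF gene with weekly (left) and daily (right) prednisone against vehicle, with 95% intervals, squares for males and circles for females. A filled point has an adjusted p under 0.05, which only Igf2r reached, at 0.47 in daily males. The interval of Igf2r is the narrowest of the 10 genes.

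Among binding proteins, Igfbp5 is known in muscle as a local modulator of IGF2 action. It lies on chromosome 1 at 72857932 to 72874884 (minus strand). It was 881, 723 and 499 CPM in vehicle males and 283, 332 and 506 in vehicle females. The female level was lower by 0.91 ± 0.33 on the log2 scale (log2 fold change -0.91, unadjusted p = 0.0145, adjusted p = 0.308), with 1 vehicle female overlapping the males. Across all 9 females Igfbp5 ranged from 214 to 584 CPM, and across all 9 males from 422 to 881. No response to treatment was called, and the responses to treatment ranged from -0.45 ± 0.33 (weekly males) to 0.16 ± 0.33 (weekly females).

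Igfbp3, the main IGF carrier of serum, lies on chromosome 11 at 7206086 to 7213923 (minus strand). It was lower than vehicle in all 4 responses without a call, from -0.18 ± 0.30 in weekly females to -0.61 ± 0.31 in weekly males (adjusted p = 0.849). The weekly males, at 43.7, 36.3 and 30.8 CPM, all lay below the vehicle males at 44.2, 52.6 and 72.4. The daily females, at 32.3, 43.9 and 36.3 CPM, all lay below the vehicle females at 50.6, 60.6 and 52.8, a difference of -0.54 ± 0.30 (adjusted p = 0.377). Female weekly replicate 1 had the lowest Igfbp3 of all, 23.1 CPM, and without it the weekly response of females was 0.16 ± 0.23. Endothelial marker sums in daily females (711 to 1181 CPM) reached below those of vehicle females (1122 to 1195). In daily females, 0 endothelial, fibroblast, mural or tendon markers had a positive log2 fold change. In males, where Igfbp3 was also lower, 6 of 7 endothelial and 5 of 7 fibroblast markers were positive with weekly and with daily prednisone. Mural markers were positive for 4 of 5 with weekly and 5 of 5 with daily prednisone in males, and tendon markers for 4 of 5 and 1 of 5. The part of these cells in the Igfbp3 values was not tested.

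Igfbp4, which is cut by the protease PAPP-A to free its IGF, lies on chromosome 11 at 99041244 to 99054392 (plus strand). It was 44.2, 42.8 and 61.9 CPM in vehicle females and 58.6, 77.3 and 114 in weekly females. The difference of 0.74 ± 0.27 on the log2 scale (1.67-fold, unadjusted p = 0.0139, adjusted p = 0.443) was not called, and the ranges overlapped. With the adipocyte marker score as a covariate it was 0.34 ± 0.32 in females and 0.09 ± 0.25 as the mean of both sexes. Macrophage marker sums were 96.4 to 134 CPM in weekly females and 37.5 to 76.1 in vehicle females, without overlap, and their part in the Igfbp4 values was not tested. In weekly males it was 0.14 ± 0.27, and the weekly responses of the sexes differed by 0.60 ± 0.38 (adjusted p = 1.0). With daily prednisone Igfbp4 differed by 0.27 ± 0.27 in males and 0.29 ± 0.27 in females. Igfbp6, which prefers IGF2 over IGF1, lies on chromosome 15 at 102144362 to 102149511 (plus strand). It was 102, 79.3 and 106 CPM in vehicle females and 43.6, 65.3 and 61.7 in daily females, without overlap. Its daily difference was -0.75 ± 0.31 in females (adjusted p = 0.217) and -0.12 ± 0.31 in males. Fibroblast marker sums also reached lower in daily females (1032 to 2564 CPM) than in vehicle females (1674 to 3649), as did endothelial, mural and tendon sums. The part of these cells in the Igfbp6 values was not tested.

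The counts of called IGF genes are given here beside the share called among all tested genes. With daily prednisone 1 of 10 was called in males, where 6.46% of all genes were, 0 in females (0.382%) and 1 as the mean of both sexes (15%), all by edgeR. At an unadjusted p under 0.05 there were 3 in males (22.8% of all genes), 2 in females (17.3%) and 2 as the mean (29.2%). DESeq2 and limma-voom called the same numbers of IGF genes as edgeR in these comparisons. Of all 13596 genes, DESeq2 called 1383 in males, 530 in females and 2354 as the mean, and limma-voom called 862, 46 and 1869. With weekly prednisone, 0 of 10 were called in males, in females and as the mean by edgeR, DESeq2 or limma-voom, and edgeR called 0% of all genes in each. Of all 13596 genes, DESeq2 called 1 in males, 152 in females and 183 as the mean, and limma-voom called 0 in each. At an unadjusted p under 0.05 the weekly numbers were 0, 3 and 2, beside 5.71%, 7.97% and 11% of all genes. The weekly share over all genes depended on 1 library. Without female weekly replicate 2, edgeR called 253 of 13839 genes in females and 174 as the mean, with no IGF gene among them. Without female weekly replicate 1 it called 0 genes in both. Between daily and weekly prednisone, edgeR called 1 of 10 as the mean of both sexes (8.17% of all genes), and 0 in either sex alone (0% of all genes). DESeq2 called Igf2r in each sex, beside 225 of all 13596 genes in males and 546 in females. With the replicate block in the daily and weekly females, 1 was called in females (3.84% of all genes) and 3 as the mean of both sexes (13.3%). Limma-voom called 0 of 10 in either sex, beside 0 of all genes in males and 2 in females. At an unadjusted p under 0.05 there was 1 in males (13.5% of all genes) and there were 3 in females (17.7%). For the sex difference of the daily and weekly responses, 0 were called by any of the 3 tools (0% of all genes by edgeR, and 2 and 0 genes by DESeq2). At an unadjusted p under 0.05 there were 2 and 0, beside 4.69% and 2.63% of all genes. Between vehicle females and males, 0 of 10 were called by any of these tools (0.765% of all genes by edgeR, 235 genes by DESeq2 and 93 by limma-voom). At an unadjusted p under 0.05 there were 2, beside 10.4% of all genes.

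The libraries of daily and vehicle mice did not overlap for 3 of 10 genes in males, where 33.4% of all genes did not, and for 4 of 10 in females (23.1%). For weekly and vehicle mice these numbers were 2 of 10 in males (16.7%) and 1 of 10 in females (8.07%), and for vehicle females and males 3 of 10 (18.9%). The median log2 fold change of the 10 genes with daily prednisone was 0.22 in males and -0.20 in females, beside 0.05 and 0.01 over all tested genes. With weekly prednisone it was 0.08 in males and -0.10 in females, beside 0.01 in each over all tested genes. Groups of daily and weekly mice were compared with the same vehicle libraries, so these numbers are not independent.

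A wider list of 20 IGF-system genes held proteases, inhibitors, adaptors and hormone receptors, and 14 of them could be tested. With daily prednisone as the mean of both sexes, 2 rose and 0 fell, in a comparison in which 15% of all tested genes were called. Irs1, the adaptor that links INSR and IGF1R to PI3K, rose 0.55 ± 0.15 on the log2 scale (adjusted p = 0.0190). It was 24.1, 16.97 and 14.5 CPM in vehicle males and 25.2, 23.2 and 31.0 in daily males, and 13.97, 13.9 and 11.02 in vehicle females and 19.3, 18.9 and 20.2 in daily females. Every daily female lay above every vehicle female, and the males overlapped. Ghr, the growth hormone receptor that acts upstream of Igf1, rose 0.55 ± 0.18 (adjusted p = 0.0486). It held 90.1, 98.4 and 68.1 CPM in vehicle males and 132, 91.5 and 131 in daily males, and 73.5, 60.4 and 81.5 in vehicle females and 98.7, 100.3 and 138 in daily females. With the adipocyte score as a covariate neither passed, Irs1 at 0.47 ± 0.22 (adjusted p = 0.284) and Ghr at -0.01 ± 0.20 (adjusted p = 0.983). Removal of the length and GC trend also ended both calls, with adjusted p = 0.153 for Irs1 and 0.323 for Ghr. The median of the 14 genes was 0.12 with daily and 0.25 with weekly prednisone, beside 0.02 over all genes in each.

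With weekly prednisone as the mean of both sexes, 0 of the 14 were called by edgeR (0% of all genes), DESeq2 (183 of all genes) or limma-voom (0 of all genes). Of the 14, 2 had an unadjusted p under 0.05, as had 11% of all genes. The lowest p values belonged to Igfals, the acid-labile subunit that holds IGF1 with IGFBP3 in serum (0.52 ± 0.20, adjusted p = 0.336), Ghr (0.39 ± 0.18, adjusted p = 0.444) and Irs1 (0.31 ± 0.15, adjusted p = 0.464). In the other comparisons, 0 of the 14 genes were called by edgeR, DESeq2 or limma-voom, which called 0 to 1111, 0 to 1434 and 0 to 1089 of all genes. At an unadjusted p under 0.05 there were 0 to 3 of the 14, beside 2.63% to 24.1% of all genes.

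Imprinted genes share with Igf2, H19 and Igf2r expression from 1 parental allele, and 17 of 18 on the list were tested, with Grb10 on both lists. With daily prednisone as the mean of both sexes, 3 rose and 0 fell, where 15% of all tested genes were called. Peg10, a retrotransposon-derived gene, rose 2.08 ± 0.33 on the log2 scale (adjusted p = 0.00138). It was 1.32, 1.28 and 1.46 CPM in vehicle males and 7.99, 10.8 and 6.56 in daily males, and 3.30, 2.17 and 2.51 in vehicle females and 2.07, 12.02 and 8.70 in daily females. Daily female replicate 1 stayed at the vehicle level, while the other 5 daily libraries lay above all vehicle libraries of their sex. Peg10 was also called in males alone (2.64 ± 0.49, adjusted p = 0.00913) and between daily and weekly prednisone (1.60, adjusted below the threshold in all 20 alternatives). Its calls against vehicle were lost with the adipocyte score as a covariate (adjusted p = 0.0546 in males and 0.0581 as the mean), and the male call also without male vehicle replicate 1 (adjusted p = 0.0554). Nnat, a small membrane protein also found in adipocytes, rose 3.24 ± 0.65 with daily prednisone (adjusted p = 0.00514). It was 3.39 ± 0.65 with weekly prednisone, where it did not pass (adjusted p = 0.134). With the adipocyte score as a covariate its daily difference was 1.23 ± 0.54 (adjusted p = 0.259).

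Plagl1, a zinc finger protein known to regulate a network of imprinted growth genes that includes Igf2 and H19, rose 1.41 ± 0.42 with daily prednisone (adjusted p = 0.0338), and the call held in 6 of 19 alternatives. It was 1.49, 1.96 and 1.14 CPM in vehicle males and 6.40, 5.15 and 4.99 in daily males. In females it was 2.63, 1.09 and 3.85 CPM with vehicle and 1.38, 5.54 and 8.10 with daily prednisone, and these overlapped. Peg3, an imprinted zinc finger protein expressed in muscle progenitors, was called in males with daily prednisone (0.79 ± 0.23, adjusted p = 0.0474) in 2 of 13 alternatives. It held 26.2, 28.3 and 23.7 CPM in vehicle males and 48.0, 33.3 and 54.0 in daily males. Peg3 was also 1.44 higher on the log2 scale in vehicle females, at 88.2, 65.3 and 57.9 CPM, than in vehicle males, and this call held in all 13 alternatives. With weekly prednisone as the mean of both sexes, 0 of the 17 were called by edgeR (0% of all genes) or limma-voom and 1 by DESeq2 (183 of all genes). At an unadjusted p under 0.05 there was 1, beside 11% of all genes. After Nnat the lowest p values were those of Meg3 and Slc38a4 (adjusted p = 0.610 and 0.629).

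**Figure D5:**
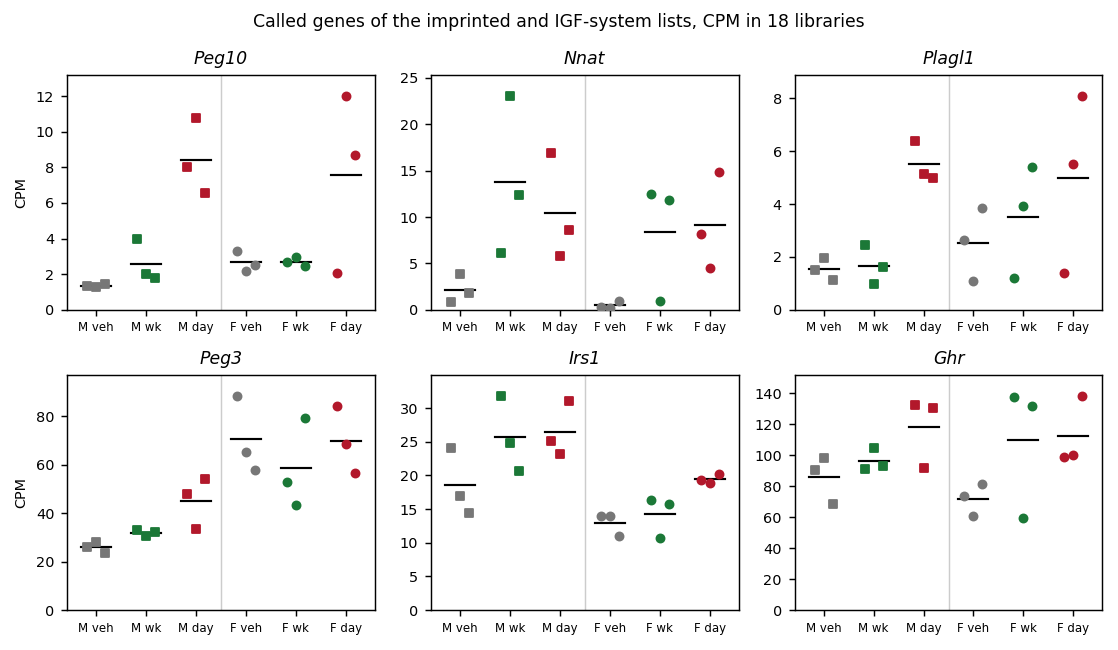
CPM in every library for the called genes of the imprinted list (Peg10, Nnat, Plagl1, Peg3) and of the IGF-system list (Irs1, Ghr), 1 panel per gene with its own axis from 0. Points are libraries of males (M, squares) and females (F, circles) by vehicle (veh), weekly (wk) and daily (day) prednisone, and bars are group means. Peg10 is high in 5 of 6 daily libraries, and Peg3 is higher in vehicle females than in vehicle males.

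Of the marker lists, the adipocyte list moved most, with 6 of 10 genes called up and 0 down by daily prednisone as the mean of both sexes. In this comparison 15% of all tested genes were called. Of the 7 myofibre markers, 2 fell in that comparison, Mylpf by 0.58 and Tnnt3 by 0.45 on the log2 scale. Of 10 macrophage markers 1, Cd68, rose by 1.41, and of the fibroblast, endothelial, mural, satellite cell, tendon and Schwann cell markers 0 were called by edgeR in it. Of those 6 lists, DESeq2 and limma-voom each called 1 Schwann cell gene, beside 2354 and 1869 of all 13596 genes. Of the same lists, 3 genes had an unadjusted p under 0.05, as had 29.2% of all tested genes. With weekly prednisone as the mean of both sexes, edgeR and limma-voom called 0 genes of any marker list and 0 of all 13596 genes. DESeq2 called 8 of the 10 adipocyte genes and 1 macrophage gene, beside 183 of all 13596 genes. At an unadjusted p under 0.05 there were 9 adipocyte, 4 macrophage, 3 myofibre and 1 Schwann cell genes, beside 11% of all tested genes. The weekly differences had a median of 1.99 for the adipocyte markers and between -0.29 and 0.45 for the other lists.

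For each IGF gene, the 3 other genes with the most similar pattern were found among 13595 by Pearson correlation of log2 CPM over the 18 libraries, which share groups, depth and cell content. These correlations describe this set of libraries. Igf2r was most like Arid1a (r = 0.896, Spearman rho 0.872), Filip1 (0.886) and Prrc2b (0.882), and r with Arid1a stayed at 0.882 without the 2 libraries farthest from the median. Insr was most like Hipk3 (0.929), Klhl24 (0.920) and Rora (0.914). Igf1 was most like Pmepa1 (0.849), then Vcan (0.818) and Adamts12 (0.808), and r with Vcan dropped to 0.557 without 2 libraries. H19 was most like Idh2 (0.903), Nnt (0.901) and Rab3ip (0.849), and these fell to 0.773, 0.702 and 0.681 without 2 libraries. Igf2 was most like Tmem44 (0.909), Cyp2d22 (0.902) and Tmem176a (0.900).

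Igf1r had the weakest partners, Gatad2b (0.763), Ric1 (0.762) and Bach1 (0.755). Among binding proteins, Igfbp3 was most like Spry1 (0.914), Sgip1 (0.903) and Pdia5 (0.886), and Igfbp4 like Carhsp1 (0.937), H2-D1 (0.919) and Sod3 (0.915). Igfbp5 was most like Cadm1 (0.877), D430041D05Rik (0.876) and Plekha2 (0.872), and Igfbp6 like Nbl1 (0.920), Cd34 (0.918) and Crip2 (0.914).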

How the data were processed

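The authors isolated poly(A) RNA from quadriceps myofibers, sequenced it, and deposited whole-number read counts per gene with no normalization, aligned to mm10 per the methods of the study. The submitters' processing notes name TopHat2 2.1.0, Bowtie2 2.2.6 and HTSeq, and the builds mm10 and mm9. Strand setting and annotation release are not given in the sources used here.

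The titles gave each library its group and replicate number. Counts were fitted in R 4.3.3 with edgeR 4.0.16 (filterByExpr, minimum count 10, TMM factors, robust quasi-likelihood fit of 6 group means over 18 libraries). Tests were two-sided, with Benjamini-Hochberg correction across the 13596 genes tested, and calls were made below an adjusted p of 0.05. Values after ± are SE for log2 fold changes, derived from the F statistic, and SD for levels. CPM used TMM-scaled library sizes. Total counts were 10506661 to 14686654 per library. Exon lengths came from GENCODE M21, because the deposited length exceeded the gene's span for 1982 genes.

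The members and the gene lists were chosen with earlier results of these data known. Genes of the lists are named where called in any comparison, otherwise the 3 lowest p values per list against vehicle as the mean of both sexes are named, and likeness takes the 3 highest correlations per member. Libraries are of separate mice per the study. Alternatives were the DESeq2 1.42.0 test, its size factors within edgeR, limma-voom (limma 3.58.1), no filter, a block for replicate number in all libraries or, added after seeing the data, in daily and weekly females alone (their same-numbered libraries correlated at r = 0.44 to 0.50 in deviations from the group means, a pairing the labels do not explain), a covariate of the adipocyte marker score (mean log2 CPM, prior count 2), removal of the trend on length and GC content (splines of 5 degrees of freedom), and leaving out each library. The steps were tested on simulated data. Of the promoter tables, windows for 8 of 10 members were used. Gene symbols matched 42462 of 43430 identifiers.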

Additional observations from a re-analysis of the deposited data

How the results depend on the processing

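Of 1880 recomputed values of the 10 genes, 1714 kept their direction and their side of the threshold, 144 uncalled values changed sign, 14 became called and 8 lost their call. The number of called IGF genes with daily prednisone fell from 1 to 0 with the adipocyte score as a covariate and with the length and GC trend removed, both in males and as the mean of both sexes. Calls over all tested genes fell in the same fits, from 878 to 51 and 72 in males. As the mean of both sexes they fell from 2033 to 76 and 771, so these losses do not set the IGF genes apart. Leaving out 1 library gave 0 to 1 in males and 1 to 2 as the mean, and without male vehicle replicate 3 the called gene was Igf1r in place of Igf2r. Between daily and weekly prednisone, DESeq2 gave 1 in males, 1 in females and 2 as the mean, no filter and the adipocyte covariate gave 2 as the mean, and leaving out 1 library gave 1 to 2. The second gene was Insr, or Igf1 without female daily replicate 3. A replicate block in the female daily and weekly libraries, chosen after seeing the data, gave 1 in females (Igf2r) and 3 as the mean (Igf2r, Igf1 and Insr). The other counts did not change in any alternative.

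With the adipocyte covariate Ghr changed sign for daily prednisone, to -0.0125. Plagl1, Ghr and Peg3 lost their daily calls in most alternatives (held in 6 of 19, 5 of 19 and 2 of 13). The causes were not tested. Of 45 pairs of libraries with the same replicate number, 17 had deviations that correlated above 0.1 (r from -0.50 to 0.50). Daily and weekly females were the only 2 groups in which all same-numbered pairs did, so the numbers were not taken to pair the samples of any other groups. When replicate number was a block over all 18 libraries, Igf2r in daily males was 0.47 (adjusted p = 0.0306), the count of called IGF genes stayed at 1, and the calls of Ghr (adjusted p = 0.0509) and Peg3 (0.0516) were lost. Igf1 and Igf1r had the lowest counts of the 10 genes, at 60 to 256 and 19 to 76 a library.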
